A study of Mus musculus with 97 samples.

Results

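Inhbb, the gene of the inhibin beta B subunit, and Pcsk1, the gene of the prohormone convertase PC1/3, were followed in captured regions of mouse hippocampus and cortex. These 2 genes of 19962 on the probe panel were chosen by name, with knowledge that both gave signal above background in these data, and each was described as its ratio to the negative probe, a pool of probes built to match no mouse transcript whose value stands for background. Because that ratio was part of the choice, levels over background are a description and carry no test.

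The 97 libraries were made with the NanoString GeoMx Digital Spatial Profiler, in which light cuts tags from probes bound to RNA in a chosen area of a tissue section and the tags are then sequenced. The sections, 8 µm thick, came from older mice that carry human APOE4 or APOE3 in place of the mouse gene, with 48 hippocampus and 49 cortex regions. Within each genotype and region, mice had received DD (doxorubicin at 3 mg/kg with docetaxel at 10 mg/kg per week), DC (doxorubicin at 3 mg/kg with cyclophosphamide at 40 mg/kg per week) or a vehicle of dimethyl sulfoxide in buffered saline. Drugs were injected into the peritoneum 2 times a week, over 2 weeks. The 12 groups were thus APOE4 DD, APOE4 DC, APOE4 vehicle, APOE3 DD, APOE3 DC and APOE3 vehicle in hippocampus and the same in cortex, each with 8 libraries except APOE3 DD cortex with 9. The labels do not state age in months, sex or the animal behind each region, so the captured region was the unit, and every p-value below is too small where regions share an animal.

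Activins are dimers of inhibin beta subunits and belong to the TGF-beta superfamily. Activin B, the dimer of the Inhbb product, binds type II receptors such as Acvr2a and Acvr2b, which then activate the type I receptors Acvr1b or Acvr1c and the transducers Smad2 and Smad3, while follistatin (Fst) binds the ligand and blocks it. Pcsk1 cuts prohormones and neuropeptide precursors at paired basic residues in the secretory granules of neurons and endocrine cells, before carboxypeptidase E (Cpe) trims the ends. Inhbb lies on chr1:119415463-119422248 and Pcsk1 on chr13:75089420-75134861 of GRCm38.p6, and both are protein coding.

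The promoter windows of both genes, 250 bases before to 50 after the start in RefSeq's GRCm38.p6 table, are shown because Pcsk1 is known as a target of cAMP signalling and carries in its window the letters of the element that CREB family factors bind. Capitals mark TGACGTCA, that palindromic element, and TGACG, its shorter core, both searched on both strands, with matches of the shorter motif inside the longer counted too. Each sequence runs 5′ to 3′ on the gene's own strand. The Inhbb window is chr1:119422199-119422498, minus strand, and the Pcsk1 window is chr13:75089607-75089906, plus strand.
Inhbb: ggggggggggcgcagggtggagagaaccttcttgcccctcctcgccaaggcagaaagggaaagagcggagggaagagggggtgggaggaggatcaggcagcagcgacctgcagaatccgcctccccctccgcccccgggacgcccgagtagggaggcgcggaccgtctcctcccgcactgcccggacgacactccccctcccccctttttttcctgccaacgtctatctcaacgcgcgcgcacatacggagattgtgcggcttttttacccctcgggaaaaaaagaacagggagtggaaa
Pcsk1: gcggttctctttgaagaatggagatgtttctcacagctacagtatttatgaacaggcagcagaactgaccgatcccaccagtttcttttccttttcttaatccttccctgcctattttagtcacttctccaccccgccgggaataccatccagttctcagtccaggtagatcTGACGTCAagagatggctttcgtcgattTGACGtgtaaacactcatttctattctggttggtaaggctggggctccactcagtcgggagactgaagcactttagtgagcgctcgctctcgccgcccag
In the Pcsk1 window, TGACGTCA stood 1 time, at bases -78 to -71 counted from the start, and a further TGACG at bases -50 to -46. The Inhbb window held 0 matches of either motif and was richer in G and C, at 64.3% against 49.3% for Pcsk1. The start in the promoter table lies 437 bases inside the outer bound of the Pcsk1 gene given above and 0 bases from that of Inhbb, so the whole Pcsk1 window lies within the span of the gene, and its positions count from the table's start. Of 32851 promoter windows of the same length, 1.79% held TGACGTCA and 20.8% held TGACG. These matches describe letters in a window and say nothing of binding in these tissues.

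Library totals lay between 21568 and 1850582 (median 61380 in APOE4 and 30579 in APOE3 libraries), and the negative probe had a median of 2.68 in APOE4 and 1.27 in APOE3 libraries. All APOE4 libraries came from 1 collection plate and all APOE3 libraries from the other, so plate and genotype cannot be told apart. In 13 libraries, all of them APOE4, the negative probe was 5 or more, and 6 of these were among the 8 of APOE4 DC hippocampus. Most genes were not above background: the median gene stood at 0.912 times the negative probe in hippocampus and 0.936 times in cortex. None of the 8 hippocampus markers and none of the 8 cortex markers had a median above 1.5 times the negative probe in either region, so the region labels could not be checked by these markers. In captured regions, fewer cells of a type and less RNA per cell cannot be told apart.

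Inhbb and Pcsk1 were among the genes that stood clear of background. The Inhbb median was 4.29 times the negative probe in hippocampus, rank 32 of 19962 genes, and of 3.54 times in cortex, rank 52. Pcsk1 had a median of 1.77 times in hippocampus, rank 67, and of 3.66 times in cortex, rank 50. In hippocampus 60 genes had a median above 2, and in cortex 97. The top gene of both regions, Mtch2 of the outer mitochondrial membrane, stood at 644 times in hippocampus and 358 times in cortex. Slc17a7, which loads glutamate into synaptic vesicles of excitatory neurons, stood at 1.08 times in hippocampus and 1.85 times in cortex, below both genes in each region. Probes differ in how well they bind, so ratios of different genes are not levels of RNA per length.

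The values behind these ratios are small. Inhbb values ran from 3 to 124 in APOE4 libraries (median 15.5, 0 of 48 at the lowest value of 1), and from 1 to 13 in APOE3 libraries (median 4, 6 of 49 at 1). For Pcsk1 the APOE4 libraries held 3 to 93 (median 11, 0 of 48 at 1), and the APOE3 libraries 1 to 12 (median 3, 10 of 49 at 1). Inhbb was above the negative probe in 90 of 97 libraries and Pcsk1 in 85.

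Over the 12 groups, Inhbb was highest in APOE4 hippocampus after DD or vehicle, and the groups below them lay close together. In APOE4 DD hippocampus its ratio had a lowest value of 3.36, a median of 6.68 and a highest of 9.17. In APOE4 vehicle hippocampus these were 3.26, 6.06 and 8.30. Every library of both groups was above 2.

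Next came APOE4 cortex. The Inhbb ratio ran from 3.87 to 6.87 in APOE4 vehicle cortex, with a median of 4.96, and from 2.00 to 7.61 in APOE4 DD cortex, with a median of 4.87. APOE3 DD hippocampus followed, from 2.66 to 7.02 with a median of 4.19. APOE4 DC cortex reached from 0.840 to 8.22, with a median of 3.57. Among the top 6 groups, 5 were APOE4 groups and 3 were hippocampus groups.

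The lower part of the order held the other APOE3 groups and APOE4 DC hippocampus. Inhbb medians were 2.94 in APOE3 vehicle hippocampus (1.58 to 5.66), 2.89 in APOE3 DC cortex (0.936 to 5.92) and 2.79 in APOE3 vehicle cortex (0.944 to 4.43). They were 2.50 in APOE3 DC hippocampus (0.977 to 4.43), 2.48 in APOE3 DD cortex (0.821 to 4.32) and 2.28 in APOE4 DC hippocampus (1.31 to 8.57). The last of these is also the group with the highest negative probe, at a median of 10.9, and its Inhbb values themselves, from 14 to 124, were the highest of any group. Without libraries whose negative probe was 5 or more, 2 of its 8 libraries were left and it moved to the top of the order, at a median of 7.48.

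Pcsk1 gave another order, in which the first 5 places were held by cortex groups. The ratio ran from 1.91 to 7.35 in APOE4 DD cortex (median 5.21), from 2.78 to 7.12 in APOE4 vehicle cortex (median 5.06) and from 1.49 to 5.53 in APOE4 DC cortex (median 4.84). It ran from 1.78 to 5.18 in APOE3 DD cortex (median 3.45) and from 0.936 to 4.15 in APOE3 DC cortex (median 3.34). The one cortex group outside these, APOE3 vehicle cortex, lay at a median of 1.80 (0.885 to 4.43), below 4 of the hippocampus groups.

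Among hippocampus groups, Pcsk1 had medians of 2.52 in APOE4 DD (1.29 to 4.86) and 2.31 in APOE4 vehicle (1.46 to 3.49). APOE3 DD and APOE3 vehicle followed at 2.17 (0.776 to 3.55) and 2.02 (0.763 to 3.07). The lowest were APOE3 DC at 1.56 (0.739 to 4.85) and APOE4 DC at 1.38 (0.868 to 1.84). All of these groups but APOE4 DD and APOE4 vehicle held at least 1 library below the negative probe.

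The steps between neighbours in these orders were small. For Inhbb, 11 of 11 neighbouring groups differed in median by less than the larger of their SDs and overlapped in range, and the same was true of 11 of 11 for Pcsk1. The order also turned on the scale. Over 12 groups its Spearman correlation with the order by share of the tested genes' values was 0.33 for Inhbb and 0.32 for Pcsk1, where APOE4 DC hippocampus came first for both genes, at a median of 0.618% for Inhbb and 0.370% for Pcsk1. With the ratio to the median of all genes in place of the negative probe, the correlation was 0.97 for Inhbb and 0.98 for Pcsk1. The median gene itself lay near the negative probe, at 0.912 times in hippocampus and 0.936 times in cortex. These scales are therefore close to each other, and the high correlation is no sign of a stable order.

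**Figure D1:**
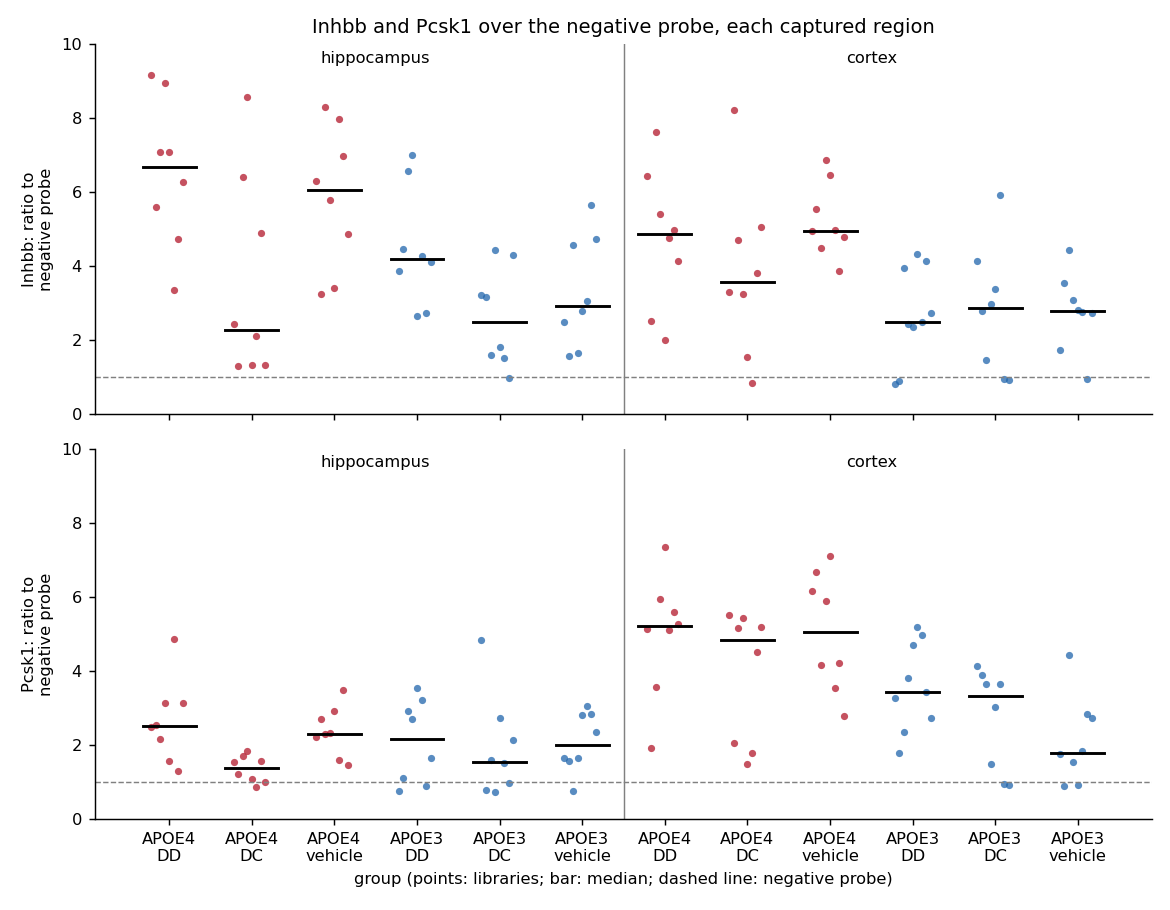
Ratio of Inhbb (top) and Pcsk1 (bottom) to the negative probe in each of 97 libraries, by group, with hippocampus on the left and cortex on the right; bars are group medians and the dashed line is the negative probe. Inhbb medians were highest in APOE4 DD and APOE4 vehicle hippocampus (6.68 and 6.06), while Pcsk1 medians were highest in the APOE4 cortex groups (4.84 to 5.21).

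Hippocampus was then compared with cortex within each of the 6 combinations of genotype and treatment, relative to the other tested genes. Inhbb was higher in hippocampus than in cortex in all 6, by 1.86-fold to 3.70-fold, when levels were set against the 58 genes that passed a filter on low values. With values summed over neighbouring wells, described below, 3 of these 6 calls were lost. Pcsk1 did not share this: its difference passed the test in 1 combination of 6 and its sign varied. These fits used edgeR's quasi-likelihood F test on values rounded to whole numbers with TMM scaling, a change was called at an adjusted p under 0.05, and differences are log2 of hippocampus over cortex. Region calls were common among the tested genes, at 84.5% for the mean over the 6 combinations, at 62.1%, 62.1% and 56.9% in APOE4 DD, DC and vehicle and at 58.6%, 51.7% and 51.7% in APOE3 DD, DC and vehicle, so a region call by itself was common. Calls of a gene as higher in hippocampus made up 41.4% of the tested genes in the mean, and 31.0%, 37.9% and 27.6% in APOE4 DD, DC and vehicle and 34.5%, 29.3% and 29.3% in APOE3 DD, DC and vehicle.

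In the mean over the 6 combinations, Inhbb was 2.25-fold higher in hippocampus (log2 1.17 ± 0.10 SE, edgeR adjusted p = 1.15e-19), and 46 of 48 hippocampus libraries lay above the cortex mean of their own combination. The difference was largest after DD in APOE3, at log2 1.89 ± 0.26 (edgeR adjusted p = 5.66e-09), where log2 CPM averaged 12.12 ± 0.30 in hippocampus and 10.66 ± 0.47 in cortex (SD, n = 8 and 9). After DC in APOE4 it was 1.40 ± 0.18 (edgeR adjusted p = 2.65e-11), with 12.41 ± 0.21 in hippocampus and 11.16 ± 0.51 in cortex (SD, n = 8 each). In these 2 combinations the hippocampus and cortex libraries did not overlap, while in the other 4 they did. How many of the other tested genes did the same was not counted, so this is a description. Background was not taken out of these values: in APOE4 DC hippocampus the Inhbb ratio had a median of 2.28, at a negative probe median of 10.9.

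In the others, the Inhbb difference was 0.91 ± 0.19 in APOE4 DD (edgeR adjusted p = 1.66e-05) and 0.91 ± 0.20 in APOE4 vehicle (edgeR adjusted p = 5.70e-05), each with 8 of 8 hippocampus libraries above the cortex mean. It was 1.03 ± 0.31 in APOE3 DC (edgeR adjusted p = 0.0108) and 0.90 ± 0.31 in APOE3 vehicle (edgeR adjusted p = 0.0287), each in 7 of 8 libraries. Leaving out APOE3 DC hippocampus 8 took the APOE3 DC difference past the threshold (highest adjusted p = 0.0517 in edgeR). The APOE3 vehicle call was lost without any of cortex 4, cortex 7, hippocampus 3, hippocampus 7 or hippocampus 8 (highest adjusted p = 0.0785 in edgeR). Summed over runs of neighbouring wells, Inhbb was at 0.78 in the mean (edgeR adjusted p = 5.78e-08), and calls were lost in APOE4 DD at 0.49, APOE3 DC at 0.56 and APOE3 vehicle at 0.53 (edgeR adjusted p of 0.0519, 0.215 and 0.202).

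Pcsk1 passed the low-value filter in the fit of cortex libraries and not in that of hippocampus libraries, so it entered the region comparison through cortex, where its ratio to background was the higher, and its region tests carry that limit. The Pcsk1 difference in the mean over the 6 combinations was 0.23 ± 0.13 (edgeR adjusted p = 0.105), with 25 of 48 hippocampus libraries above the cortex mean of their combination. It was 0.54 ± 0.22 in APOE4 DC (edgeR adjusted p = 0.0224), in 5 of 8 libraries, and this call was lost without any of APOE4 DC cortex 1, 2, 3 or 4 or hippocampus 2 or 8 (lowest log2 0.30, highest adjusted p = 0.235 in edgeR). Values for the others that did not pass ran from -0.37 in APOE4 DD to 0.59 in APOE3 vehicle. In every combination the hippocampus and cortex libraries of Pcsk1 overlapped.

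These region values depend on what the libraries are scaled to. With TMM on the tested genes, 24 genes were called higher and 25 lower in hippocampus in the mean over the 6 combinations, and the median tested gene was at log2 -0.10. With libraries scaled by the negative probe, 5 were called higher and 39 lower and the median tested gene was at -1.12. Inhbb was then at 0.21 (edgeR adjusted p = 0.199) and Pcsk1 at -0.81 (edgeR adjusted p = 1.69e-07, with 75.9% called). Scaling by the negative probe compares the ratios that were part of the choice, so its p-values here and below are a description. Pcsk1 also entered this fit through cortex, where its ratio was the higher. With all 19962 genes kept in the TMM fit, 2 were called higher and 75 lower. In that fit the median of the 58 genes that had passed the filter, not of all genes, was at -1.06. Inhbb was there at 0.26 (edgeR adjusted p = 0.9998) and Pcsk1 at -0.77 (edgeR adjusted p = 0.00142, with 0.386% called).

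A scaling of whole libraries shifts all genes alike, so a gene's distance from the median tested gene of the same fit hardly depends on it and is no sign of stability; it gives the gene's place among the tested genes. In the mean over the 6 combinations, Inhbb lay between 1.25 and 1.46 above that median over the 9 settings tried, and Pcsk1 between 0.18 and 0.35 above it. The sign of Pcsk1's own difference turned with the scaling, and Inhbb lost its call. The negative probe was higher in APOE4 DC hippocampus (median 10.9) than in APOE4 DC cortex (median 4.26), and its part in these differences was not tested.

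**Figure D2:**
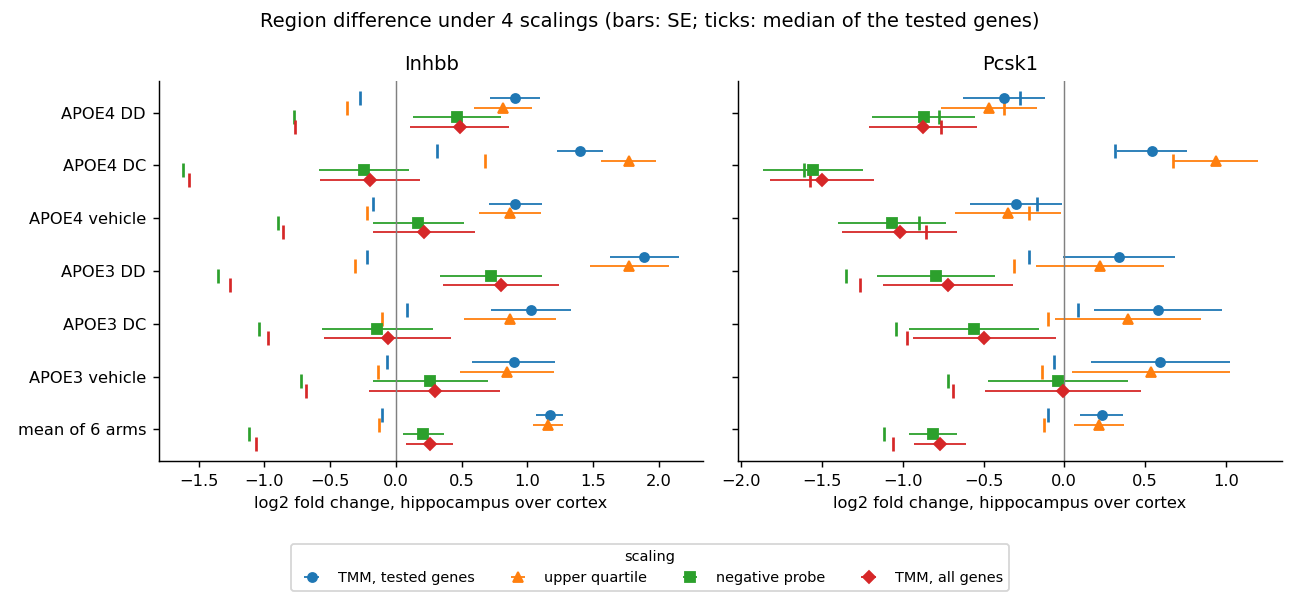
Log2 fold change of hippocampus over cortex for Inhbb (left) and Pcsk1 (right) in the 6 combinations of genotype and treatment and in their mean, under 4 scalings; bars are SE and ticks of the same colour mark the median of the tested genes. In the mean of the 6 combinations Inhbb was at 1.17 with TMM on the tested genes and at 0.21 with the negative probe, and Pcsk1 at 0.23 and -0.81, while Inhbb stayed to the right of its tick throughout.

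The ratio of Inhbb to Pcsk1 within a library does not change with any scaling, and was chosen as a measure after the values had been seen. Its p-values therefore describe a difference already seen in these data and are no independent test of it. Background is not taken out of either value: in APOE4 DC hippocampus Pcsk1 lay at 0.868 to 1.84 times the negative probe. Inhbb was above Pcsk1 in 37 of 48 hippocampus libraries and in 18 of 49 cortex libraries, with median ratios of 2.10 in hippocampus and 1.00 in cortex. Log2 of the ratio was higher in hippocampus than in cortex by 1.77 in APOE3 DD (8 of 8 hippocampus libraries above the cortex mean; adjusted p = 0.0074), by 1.45 in APOE4 DD (7 of 8; adjusted p = 0.0099), by 1.18 in APOE4 vehicle (8 of 8; adjusted p = 0.0079) and by 1.18 in APOE4 DC (8 of 8; adjusted p = 0.0301), in two-sided exact permutation tests over captured regions, adjusted over the 6 combinations. The 2 remaining combinations gave 0.55 in APOE3 DC (3 of 8) and 0.20 in APOE3 vehicle (4 of 8), with adjusted p = 0.352 and 0.780 in the same exact tests.

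The mean log2 ratio was 1.22 ± 0.87 in hippocampus and -0.55 ± 0.82 in cortex of APOE3 DD mice (SD, n = 8 and 9). In APOE4 DD mice it was 1.34 ± 0.85 in hippocampus and -0.10 ± 0.85 in cortex (SD, n = 8 each). In APOE4 vehicle mice it was 1.28 ± 0.75 in hippocampus and 0.09 ± 0.39 in cortex (SD, n = 8 each). Cortex therefore held the genes at about equal values in these combinations except APOE3 DD, where Pcsk1 was the higher.

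Libraries next to each other on the plate form runs of wells within a group, 49 in all, of which 48 hold 2 libraries. When the values of a run were summed, leaving 4 hippocampus and 4 or 5 cortex runs per combination, the log2 differences were 1.65, 1.30, 1.23 and 1.03 in the same order as above, and none passed the adjustment in exact permutation tests (adjusted p = 0.0952, 0.0857, 0.0857 and 0.129). The labels do not say whether a run is an animal.

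**Figure D3:**
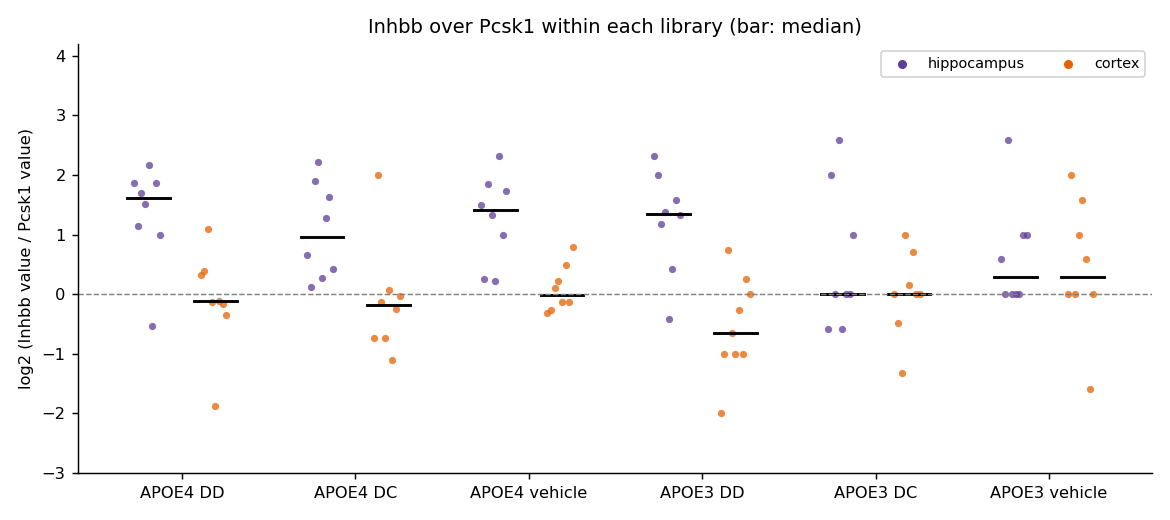
Log2 of the Inhbb value over the Pcsk1 value in each library, hippocampus beside cortex for the 6 combinations of genotype and treatment; bars are medians and the dashed line marks equal values. Hippocampus libraries lay higher in APOE4 DD, APOE4 DC, APOE4 vehicle and APOE3 DD, by 1.18 to 1.77, and the regions differed by 0.55 and 0.20 in APOE3 DC and APOE3 vehicle.

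Of the listed cell type and region markers, only Slc17a7 of excitatory neurons was called between the regions. It was lower in hippocampus in the fit that kept all genes (log2 -0.66 in the mean over the 6 combinations, edgeR adjusted p = 0.0153, with 0.386% called). In that fit the median of the 58 genes that had passed the filter was lower still, at -1.06. Among the excitatory neuron markers, Slc17a6 (0.928 and 0.821 times the negative probe) and Camk2a (0.955 and 0.948) had higher medians in hippocampus than in cortex, and the others lower. The mean ratio to the negative probe over the 8 excitatory neuron markers ran from 0.750 to 1.86 in hippocampus libraries (median 1.13) and from 0.835 to 2.30 in cortex libraries (median 1.38). None of the 7 inhibitory neuron, 7 astrocyte, 7 microglia, 7 oligodendrocyte and 6 endothelial markers reached 1.5 in either region. The part of cell makeup in the Inhbb and Pcsk1 differences was not tested.

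Chemotherapy was compared with vehicle within each genotype and region. Neither gene differed from vehicle past the threshold: Inhbb was called in 0 of 8 comparisons and Pcsk1 in 0 of 4, those of cortex, in edgeR (2 and 0 at an unadjusted p under 0.05), and DESeq2 also called 0 (1 and 0 unadjusted). Pcsk1 did not pass the low-value filter in the hippocampus fit and has no test there beside that of the fit without the filter. Of the 57 genes tested in cortex, 12.3% were called after DD and 1.75% after DC in APOE4, and 3.51% after DD and 12.3% after DC in APOE3. Of the 38 tested in hippocampus, these shares were 5.26% and 21.1% in APOE4, and 2.63% and 21.1% in APOE3.

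In APOE3 hippocampus, Inhbb was nearer the threshold after DD than after DC. It averaged 11.91 ± 0.32 log2 CPM after DD and 11.35 ± 0.47 after vehicle (SD, n = 8 each), a log2 difference of 0.73 ± 0.28 SE (edgeR adjusted p = 0.105), and 8 of 8 DD libraries lay above the vehicle mean. After DC the APOE3 hippocampus mean was 11.76 ± 0.61 log2 CPM, 0.64 ± 0.32 SE above vehicle (edgeR adjusted p = 0.197), with 6 of 8 libraries above the vehicle mean. The DC difference turned to -0.31 with negative probe scaling and to -0.35 with all genes kept, where the DD difference was 0.43 and 0.41. The groups overlapped in both comparisons.

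In APOE4 hippocampus, Inhbb averaged 12.50 ± 0.39 log2 CPM after DC and 12.13 ± 0.37 after vehicle (SD, n = 8 each), a log2 difference of 0.44 ± 0.19 SE (edgeR adjusted p = 0.0676). This is the comparison with the high negative probe: the difference was 0.67 with upper-quartile scaling (edgeR adjusted p = 0.0412), -0.89 when scaled by the negative probe (edgeR adjusted p = 0.0367; 55.3% called) and -0.35 without libraries whose negative probe was 5 or more (edgeR adjusted p = 0.622). It also passed without any of vehicle 1, vehicle 6, vehicle 7, DC 3 or DC 7 (lowest adjusted p = 0.0278 in edgeR). DD in APOE4 hippocampus gave -0.17 ± 0.20 (edgeR adjusted p = 0.612).

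In cortex, Inhbb differences from vehicle were -0.03 ± 0.20 after DD and -0.32 ± 0.20 after DC in APOE4, and -0.34 ± 0.33 after DD and 0.41 ± 0.32 after DC in APOE3 (edgeR adjusted p of 0.987, 0.299, 0.748 and 0.458). Pcsk1 differed from vehicle by 0.09 ± 0.21 after DD and -0.09 ± 0.21 after DC in APOE4 (edgeR adjusted p of 0.875 and 0.870). In APOE3 cortex it was 0.51 ± 0.34 above vehicle after DD (edgeR adjusted p = 0.726) and 0.71 ± 0.36 after DC (edgeR adjusted p = 0.199), with 9 of 9 and 8 of 8 libraries above the vehicle mean. A p that misses the threshold does not show that treatment left these genes as they were: log2 differences as large as 0.73 in hippocampus and 0.71 in cortex did not pass.

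In hippocampus Pcsk1 is known here from the fit that kept all genes. There it was -0.97 ± 0.30 after DC in APOE4 (edgeR adjusted p = 0.112, with 0.932% of genes called). In that fit the median of the 38 genes that passed the filter in hippocampus, which do not include Pcsk1, was also -0.97. The other Pcsk1 differences from vehicle were 0.12 after DD in APOE4, 0.01 after DD in APOE3 and -0.15 after DC in APOE3 (edgeR adjusted p of 0.995, 0.990 and 0.974).

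Whether treatment acted differently in APOE4 than in APOE3 was tested as an interaction, in which 0.0% and 3.51% of tested genes were called in cortex for DD and DC and 0.0% and 5.26% in hippocampus. None of 4 tests for Inhbb and none of 2 for Pcsk1 was called in edgeR (1 and 0 at an unadjusted p under 0.05). The furthest from 0 was Inhbb after DD in hippocampus, at log2 -0.90, the DD difference in APOE4 minus that in APOE3 (edgeR adjusted p = 0.195). For Pcsk1 the values were -0.42 after DD and -0.80 after DC in cortex (edgeR lowest adjusted p = 0.317).

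APOE4 was compared with APOE3 within each treatment and region. Both genes were called higher in APOE4 in several of these comparisons, Inhbb in 4 of 6 and Pcsk1 in 2 of 3, those of cortex. The other tested comparisons differed by log2 0.28 or less. Both genes passed the low-value filter mostly through APOE4 libraries, where their values were higher, so these genotype tests carry that limit. In cortex the median Inhbb value was 14 in APOE4 and 4 in APOE3, and that of Pcsk1 was 12 and 3. In hippocampus the median Inhbb value was 17.5 in APOE4 and 4 in APOE3. With runs of wells as a random block, 2 of these Inhbb calls were lost, vehicle cortex at 0.62 and DC hippocampus at 0.67 (limma adjusted p of 0.148 and 0.0644). Both Pcsk1 calls were lost in that fit, vehicle cortex at 0.85 and DD cortex at 0.49 (limma adjusted p of 0.0524 and 0.264). Summed over runs of wells, Inhbb in vehicle cortex at 0.78 and Pcsk1 in DD cortex at 0.57 were lost (edgeR adjusted p of 0.0960 and 0.146). All of these differences are also differences between plates and between libraries of different negative probe level, which cannot be told apart from genotype. The shares of tested genes called were 39.5%, 7.89% and 21.1% in hippocampus after vehicle, DD and DC, and 21.1%, 21.1% and 24.6% in cortex. Genes called higher in APOE4 were 15.8%, 2.63% and 10.5% of those tested in hippocampus and 14.0%, 17.5% and 12.3% in cortex, in the same order of treatments.

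In vehicle mice, Inhbb averaged 12.13 ± 0.37 log2 CPM in APOE4 and 11.35 ± 0.47 in APOE3 hippocampus (SD, n = 8 each), a 1.95-fold difference (log2 0.97 ± 0.26 SE, edgeR adjusted p = 0.00227), with 8 of 8 APOE4 libraries above the APOE3 mean. In vehicle cortex it averaged 11.71 ± 0.23 in APOE4 and 11.04 ± 0.48 in APOE3 (SD, n = 8 each), log2 0.81 ± 0.28 SE (edgeR adjusted p = 0.0389), again in 8 of 8. The cortex call was lost without any of 8 of its 16 libraries, namely APOE4 1, 4, 5 or 6 or APOE3 3, 4, 5 or 7 (highest adjusted p = 0.0928 in edgeR).

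After DD, Inhbb was 2.17-fold higher in APOE4 than in APOE3 cortex (log2 1.12 ± 0.24, edgeR adjusted p = 0.000129; 8 of 8 libraries). In DD hippocampus the difference was 0.07 ± 0.23 (edgeR adjusted p = 0.897), with means of 12.01 ± 0.28 log2 CPM in APOE4 and 11.91 ± 0.32 in APOE3 (SD, n = 8 each). After DC it was 0.76 ± 0.26 in hippocampus (edgeR adjusted p = 0.0243; 8 of 8 libraries), a call lost without APOE4 DC hippocampus 2 or 8 or APOE3 DC hippocampus 6 (highest adjusted p = 0.111 in edgeR), and 0.05 without libraries whose negative probe was 5 or more. In DC cortex it was 0.08 ± 0.25 (edgeR adjusted p = 0.874).

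Pcsk1 averaged 11.64 ± 0.39 log2 CPM in APOE4 and 10.73 ± 0.61 in APOE3 vehicle cortex (SD, n = 8 each), a 2.11-fold difference (log2 1.08 ± 0.31 SE, edgeR adjusted p = 0.0113) in 8 of 8 libraries. After DD it averaged 11.67 ± 0.40 in APOE4 and 11.21 ± 0.34 in APOE3 cortex (SD, n = 8 and 9), log2 0.66 ± 0.23 SE (edgeR adjusted p = 0.0309), in 7 of 8. That call was lost without any of APOE4 DD cortex 2, 5 or 8 or APOE3 DD cortex 5, 6, 7 or 8 (highest adjusted p = 0.0768 in edgeR). After DC the difference was 0.28 ± 0.26 (edgeR adjusted p = 0.453). In hippocampus Pcsk1 has only the fit that kept all genes, where its sign varied. APOE4 minus APOE3 was there 0.17 after vehicle, 0.28 after DD and -0.64 after DC (edgeR adjusted p of 0.993, 0.996 and 0.998).

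None of these genotype calls remained when libraries were scaled by the negative probe or when all genes were kept, where p-values were adjusted over 19962 genes. With negative probe scaling and with all genes kept, the Inhbb differences were 0.80 and 0.83 in vehicle hippocampus, 0.89 and 1.22 in vehicle cortex, 0.77 and 0.91 in DD cortex, and 0.22 and 0.25 in DC hippocampus. Those of Pcsk1 were 1.18 and 1.52 in vehicle cortex and 0.38 and 0.52 in DD cortex. Their SE were larger, at 0.36 to 0.43 with negative probe scaling and 0.43 to 0.54 with all genes kept.

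**Figure D4:**
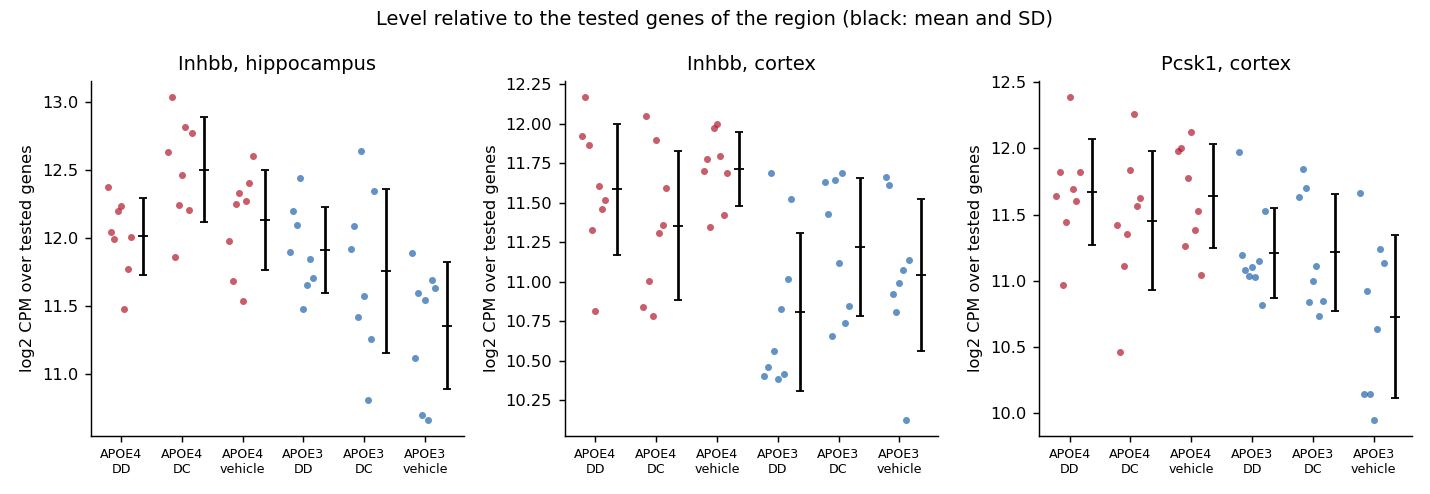
Log2 CPM over the tested genes of the region for Inhbb in hippocampus, Inhbb in cortex and Pcsk1 in cortex, by genotype and treatment; points are libraries and black marks the mean and SD. Vehicle libraries of APOE4 averaged 12.13, 11.71 and 11.64 in the 3 panels and those of APOE3 averaged 11.35, 11.04 and 10.73.

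The genes most like each member were those with the highest Pearson r over the 12 group means of log2 CPM among the 58 tested genes, given as a description. For Inhbb they were Olfr655 (r = 0.97), Rhov (r = 0.94), Eri3 (r = 0.94), Vmn1r189 (r = 0.89) and Xrn1 (r = 0.85). For Pcsk1 they were Hikeshi (r = 0.74), Rgs19 (r = 0.70), Cyp2d12 (r = 0.69), Tmem65 (r = 0.64) and Elof1 (r = 0.64). Inhbb and Pcsk1 had r = 0.46 with each other, rank 23 in the list of Inhbb and rank 9 in that of Pcsk1. The group means share plate, scaling and depth. Olfr655 and Vmn1r189 are an olfactory and a vomeronasal receptor gene.

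The rest of the activin and convertase pathways was mostly at background. Of 8 activin and inhibin ligands, only Inhbb had a median above 1.5 times the negative probe in either region; the next was Inhba, the beta A subunit, at 1.10 in hippocampus and 0.960 in cortex. None of the 9 receptors and transducers reached 1.5: Tgfbr3, the co-receptor betaglycan, stood at 0.912 in hippocampus and 1.21 in cortex, and Smad2 at 1.11 in hippocampus and 1.10 in cortex. None of the 6 inhibitors did either, with Fst at 0.988 in hippocampus and 1.08 in cortex. Over all genes, 0.681% had a median above 1.5 in hippocampus and 1.07% in cortex.

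Of 9 proprotein convertases, only Pcsk1 was above 1.5 in either region; Pcsk2, which acts with Pcsk1 in neuropeptide processing, stood at 0.902 in hippocampus and 1.11 in cortex, and Furin at 1.05 in hippocampus and 1.06 in cortex. Among 6 convertase helpers and trimming enzymes, Cpe reached 1.61 in cortex and was at 1.01 in hippocampus. Of 22 granins, neuropeptides and other precursors, the neuropeptide gene Gal was at 1.56 in hippocampus and 1.75 in cortex, and the rest were below 1.5. None of 20 immediate early and activity-linked genes reached 1.5; the highest were the transcription factor Npas4, at 0.930 in hippocampus and 1.11 in cortex, and Rheb, at 0.846 in hippocampus and 1.06 in cortex.

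Besides Inhbb and Pcsk1, none of the genes on these 7 lists passed the low-value filter. In the fit that kept all genes, Smad4, the common transducer of activin signals, was the other pathway gene called in any comparison, higher in APOE4 DD hippocampus than in APOE4 DD cortex by log2 2.27 ± 0.40 (edgeR adjusted p = 0.000135; 0.105% of genes called). Its median was 0.833 times the negative probe in hippocampus and 0.960 times in cortex. The mean ratio over the 9 receptors and transducers reached 4.82 in hippocampus libraries, with a median of 1.14. Libraries were not left out in turn for Smad4, so whether its call rests on 1 library was not tested.

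**Figure D5:**
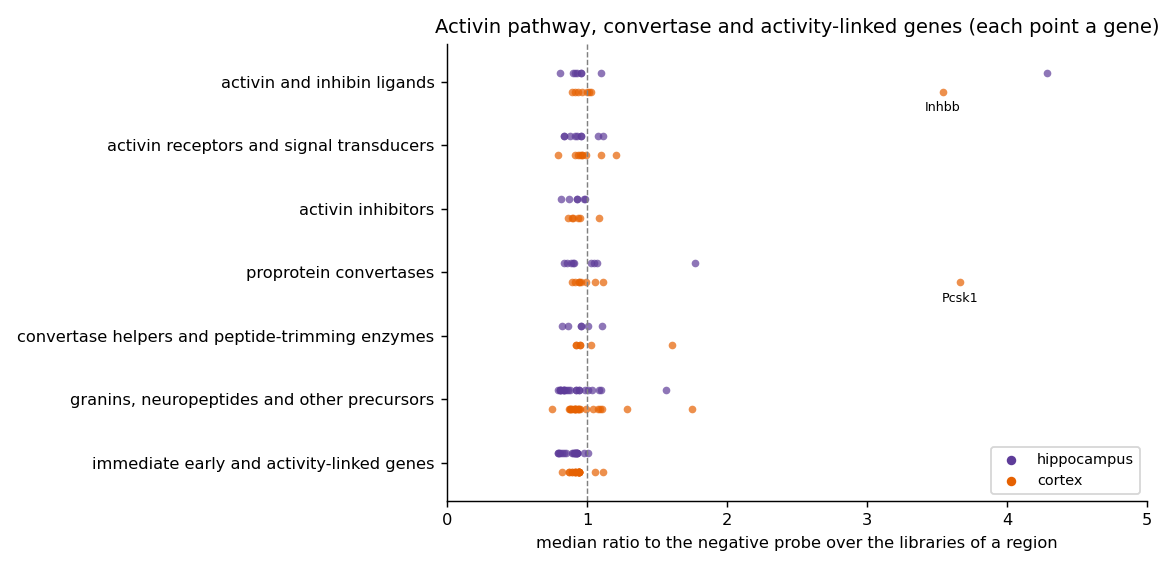
Median ratio to the negative probe over the 48 hippocampus and 49 cortex libraries for each gene of 7 pathway lists; each point is a gene and the dashed line is the negative probe. Inhbb (4.29 in hippocampus, 3.54 in cortex) and Pcsk1 (1.77 and 3.66) stand to the right of the other listed genes, of which Gal (1.56 and 1.75) and Cpe (1.61 in cortex) were the others above 1.5.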

How the data were processed

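The deposited table holds expected counts per probe target for 97 libraries, not scaled to depth by the authors as far as the values show; the submitters' processing notes name the build mm10, and the counting software is not given in the sources used here. It has 19963 rows, of which 1 is the combined negative probe. The lowest value was 1 in 94 libraries, so 1 can stand for a count of 0. Values in 4 rows are not whole, and values were rounded before modelling.

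Members and lists were chosen with earlier results of these data known. Libraries were grouped by the genotype, treatment and tissue in the labels. Models were fitted with edgeR 4.0.16 (R 4.3.3) to the 6 groups of each region (57 genes tested in cortex, 38 in hippocampus) and, for hippocampus against cortex, to all 12 groups (58 genes). They used TMM scaling over the tested genes, filterByExpr with a minimum count of 10, and quasi-likelihood F tests. P-values were adjusted by Benjamini-Hochberg over all genes tested, with a threshold of 0.05, in each of 25 contrasts. Log2 CPM used a prior count of 2. SE were derived from the F statistic. The script was tested on simulated data. Exact permutation tests used scipy 1.17.1. No 2 libraries were identical (0 pairs).

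Alternatives were upper-quartile scaling, DESeq2 1.42.0, no low-count filter, 1 subtracted from every value, negative probe scaling, values summed over runs of wells, runs as a random block (limma 3.58.1), leaving out libraries with a negative probe of 5 or more, and leaving out each library. The text names Inhbb and Pcsk1 throughout, the 5 genes most like each, Mtch2 and Slc17a7 as levels to compare with, and up to 4 members of each list that were above 1.5 times the negative probe or called, or else its highest 2. Some genes that this rule names are not reported here. Totals set the precision, and errors between libraries hold counting error as well. Promoters and positions come from RefSeq (GRCm38.p6), in which both members matched. No genome, probe or protein sequence was used here.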

Additional observations from a re-analysis of the deposited data

Results flagged for a closer look

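In 3 groups, 1 library lay far from the others of its group in log2 of the Inhbb value over the Pcsk1 value, judged by its gap to the nearest library as a share of the group's range; chance gives about 1 such group in 20, and all 3 were among the 12 groups of this measure, of 36 examined over 3 measures (this one and the ratio of each gene to the negative probe). In APOE4 DC cortex, library 2 was highest at 2.00, with values of 16 for Inhbb and 4 for Pcsk1, and the next library was at 0.06. In APOE4 DD hippocampus, library 6 was lowest at -0.53, with 9 for Inhbb and 13 for Pcsk1, and the nearest was at 1.00. In APOE3 vehicle hippocampus, library 3 was highest at 2.58, with 6 for Inhbb and 1 for Pcsk1, where 1 is the lowest value of the table, and the next was at 1.00. The causes were not tested. Leaving out each library in turn, the hippocampus minus cortex difference of this log2 ratio ran from 1.01 to 1.48 in APOE4 DC, from 1.19 to 1.71 in APOE4 DD and from -0.09 to 0.42 in APOE3 vehicle.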

How the results depend on the processing

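No paired analysis was possible because the labels do not tie regions to animals. The library numbers used here count the libraries of a group in the order of their wells and are not part of the labels. Values below are log2 differences, and the cause of each change was not tested beyond what the setting itself alters. With negative probe scaling, Inhbb in hippocampus against cortex was 0.47, -0.24 and 0.17 in APOE4 DD, DC and vehicle, 0.72, -0.14 and 0.26 in APOE3 DD, DC and vehicle and 0.21 in the mean, and Pcsk1 was -0.87, -1.56, -1.07, -0.80, -0.56, -0.039 and -0.81 in the same order, with only APOE4 DD, DC and vehicle and the mean called. With no low-count filter, Inhbb was 0.49, -0.20, 0.21, 0.80, -0.061, 0.29 and 0.26 in that order, and Pcsk1 -1.5005 in APOE4 DC, -0.72, -0.49 and -0.0090 in APOE3 DD, DC and vehicle and -0.77 in the mean. In APOE4 against APOE3 (negative probe scaling, then no filter), Inhbb was 0.77 and 0.91 in DD cortex, 0.89 and 1.22 in vehicle cortex, 0.22 and 0.25 in DC hippocampus and 0.80 and 0.83 in vehicle hippocampus, and Pcsk1 was 0.38 and 0.52 in DD cortex and 1.18 and 1.52 in vehicle cortex, with no calls. For treatment against vehicle in the same order, Inhbb in hippocampus was -0.31 and -0.35 for APOE3 DC, -0.89 and -0.93 for APOE4 DC and 0.15 and 0.10 for APOE4 DD, Pcsk1 for APOE4 DD cortex was -0.023 and -0.083, the Inhbb interaction with DD in cortex was -0.12 and -0.31, and Inhbb for APOE3 DD cortex was 0.11 without the filter.

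Summed over runs of wells, calls were lost for Inhbb in hippocampus against cortex in APOE3 DC (0.56), APOE3 vehicle (0.53) and APOE4 DD (0.49), for Pcsk1 in APOE4 DC (0.33), and in APOE4 against APOE3 for Pcsk1 in DD cortex (0.57) and Inhbb in vehicle cortex (0.78). Pcsk1 turned to -0.25 in APOE3 DD and -0.16 in the mean, and to a call at -0.79 in APOE4 DD. With runs as a random block (correlation 0.247 in cortex, 0.151 in hippocampus and 0.189 in all libraries), Pcsk1 lost its calls in APOE4 DC hippocampus against cortex (0.45) and in APOE4 against APOE3 DD and vehicle cortex (0.49 and 0.85), Inhbb lost vehicle cortex (0.62) and DC hippocampus (0.67), and DC cortex turned to -0.0034. DESeq2 lost Pcsk1 in APOE4 DC hippocampus against cortex (0.37) and DD cortex genotype (0.61) and Inhbb in vehicle cortex (0.73) and DC hippocampus genotype (0.71), and turned DC cortex to -0.025. Subtracting 1 lost Inhbb in APOE3 DC (0.88) and Pcsk1 in APOE4 DC (0.56) between regions. Upper-quartile scaling lost Pcsk1 in DD cortex genotype (0.68) and called Inhbb for APOE4 DC hippocampus (0.67). Without a negative probe of 5 or more, Pcsk1 lost DD cortex (0.58) and turned to -0.16 in DC cortex genotype and -0.17 in APOE4 DC between regions, and Inhbb was 0.053 in DC hippocampus and -0.17 in DC cortex genotype and -0.35 for APOE4 DC in hippocampus; the APOE4 DC difference of the Inhbb to Pcsk1 ratio, then 1.97 on 2 and 4 libraries, was not called. Over runs that ratio lost its calls at 1.65 in APOE3 DD, 1.23 in APOE4 vehicle, 1.30 in APOE4 DD and 1.03 in APOE4 DC, and without values at 1 APOE3 DC turned to -0.041.

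Leaving out 1 library at a time, the values whose call or sign changed ran between these bounds. Between regions, Inhbb ran from 0.89 to 1.18 in APOE3 DC and from 0.80 to 1.02 in APOE3 vehicle, and Pcsk1 from 0.30 to 0.66 in APOE4 DC and from -0.58 to -0.26 in APOE4 DD, which was called without cortex 3 or hippocampus 6. For APOE4 against APOE3, Inhbb ran from 0.69 to 0.92 in vehicle cortex, from -0.018 to 0.21 in DC cortex, from -0.0025 to 0.19 in DD hippocampus and from 0.58 to 0.92 in DC hippocampus, and Pcsk1 from 0.59 to 0.75 in DD cortex. Against vehicle, Inhbb ran from -0.18 to 0.017 for APOE4 DD cortex and from 0.35 to 0.65 for APOE4 DC hippocampus, and Pcsk1 from -0.019 to 0.17 for APOE4 DD cortex; the Inhbb interaction with DC in hippocampus ran from -0.38 to 0.070.

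The number of genes called changed most without the filter, at 77 of 19962 against 49 of 58 for the mean region difference and 186 against 8 for APOE4 DC in hippocampus (21 with negative probe scaling). It stayed within 1.5 times in 23 of 25 contrasts with 1 subtracted, 22 with DESeq2, 20 with upper-quartile scaling, 17 with the block, 17 without a high negative probe, 15 over runs, 9 with negative probe scaling and 4 without the filter. Pcsk1 was at the lowest value of 1 in 10 of 49 APOE3 libraries, for which depth, plate and genotype cannot be told apart.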
